A study of Mus musculus with 3 samples.

Results

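The mitochondrial chromosome carried 1216 of the 1727697 reads recovered with Ptbp2 from mouse testis. All reads placed on that chromosome were taken, whatever their strand or display colour. The libraries were made by HITS-CLIP, which sequences RNA fragments crosslinked to a chosen protein and recovered with it, from the testes of 3 adult male CD1 mice aged 8 weeks. There was 1 group, with no treatment and no input or control library, so RNA that Ptbp2 held in the cell cannot be told apart from RNA carried along in the preparation. Whole testis was used, and fewer cells of a type and less RNA per cell cannot be told apart. The reads were drawn in 3 colours that no label ties to an animal, and they are given here as a red, a green and a blue class of 493620, 952096 and 281981 reads in all.

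Ptbp2 is a neuronal and germ-cell paralogue of Ptbp1 that binds pyrimidine-rich RNA, and it is known as a regulator of alternative splicing in the nucleus. The mitochondrial genome is a compact circle without introns that encodes 2 ribosomal RNAs, 22 transfer RNAs and 13 proteins of the respiratory chain. Both strands are transcribed into long precursors, and the tRNAs that punctuate them are cut out to free the rRNAs and mRNAs. The rRNAs, 14 of the tRNAs and all mRNAs but that of mt-Nd6 read along the plus strand, and mt-Nd6 and 8 tRNAs read along the minus strand. Read positions are those of the mm9 file, counted from 1. Genes were placed with the RefSeq table of GRCm38.p6, taking the mitochondrial sequence as the same in both builds, and the sequence itself was not used here.

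Mitochondrial reads made 0.0704% of the total (95% Wilson interval 0.0665 to 0.0745). The share was 0.0754% for red (0.0681 to 0.0834), 0.0593% for green (0.0547 to 0.0644) and 0.0989% for blue (0.0880 to 0.111). The blue interval did not overlap the others, and the green class was the lowest. These intervals cover counting error only, since amplified copies are not independent molecules. The file holds each distinct read once, so a read present in several classes would appear in a single colour. The part of this in the class differences, here and below, was not tested. No label names a colour as a library, and no test between animals was possible. Of the mitochondrial reads 95.5% lay on the plus strand, with 94.3% for red, 95.9% for green and 96.1% for blue. The median mitochondrial read was 48 nt long, against 46 nt on all other chromosomes, but the classes did not share this difference, with 47 against 48 nt for red, 49 against 45 nt for green and 47 against 47 nt for blue. Keeping 1 read per 5' end, strand and class left 76.5% of the mitochondrial reads and 85.9% of the others. The share kept was 69.7% for reads of rRNA genes and 72.8% for those of tRNA genes. Reads of mitochondrial coding genes kept 87.7%, close to the share of the other chromosomes. These groups of genes also differ in reads per kb, given below, and the part of density in the shares kept was not tested.

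Nearly all of these reads lay in genes on their own strand. By the position of its midpoint, 1167 of the 1216 reads lay in a gene of the same strand, 45 lay only opposite a gene and 4 lay in no gene. The rRNA genes held 641 of the sense reads, or 54.9% (95% Wilson interval 52.1 to 57.8). The coding genes held 357, or 30.6%, and the tRNA genes 169, or 14.5%. In the green class 61.1% of the sense reads were rRNA and 10.04% were tRNA, whereas the red class had 49.3% and 19.1% and the blue class 49.6% and 17.5%. A single tRNA gene, mt-Tl1, described below, held 32 of the 67 red, 12 of the 55 green and 24 of the 47 blue tRNA reads. Per kb of gene, the rRNA genes had 253 reads, the tRNA genes 113 and the coding genes 31.4, so rRNA density was 8.03-fold that of coding genes. When only bases outside a long stretch without reads were counted, described next, the coding genes had 50.2 reads per kb and the ratio was 5.03.

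**Figure D1:**
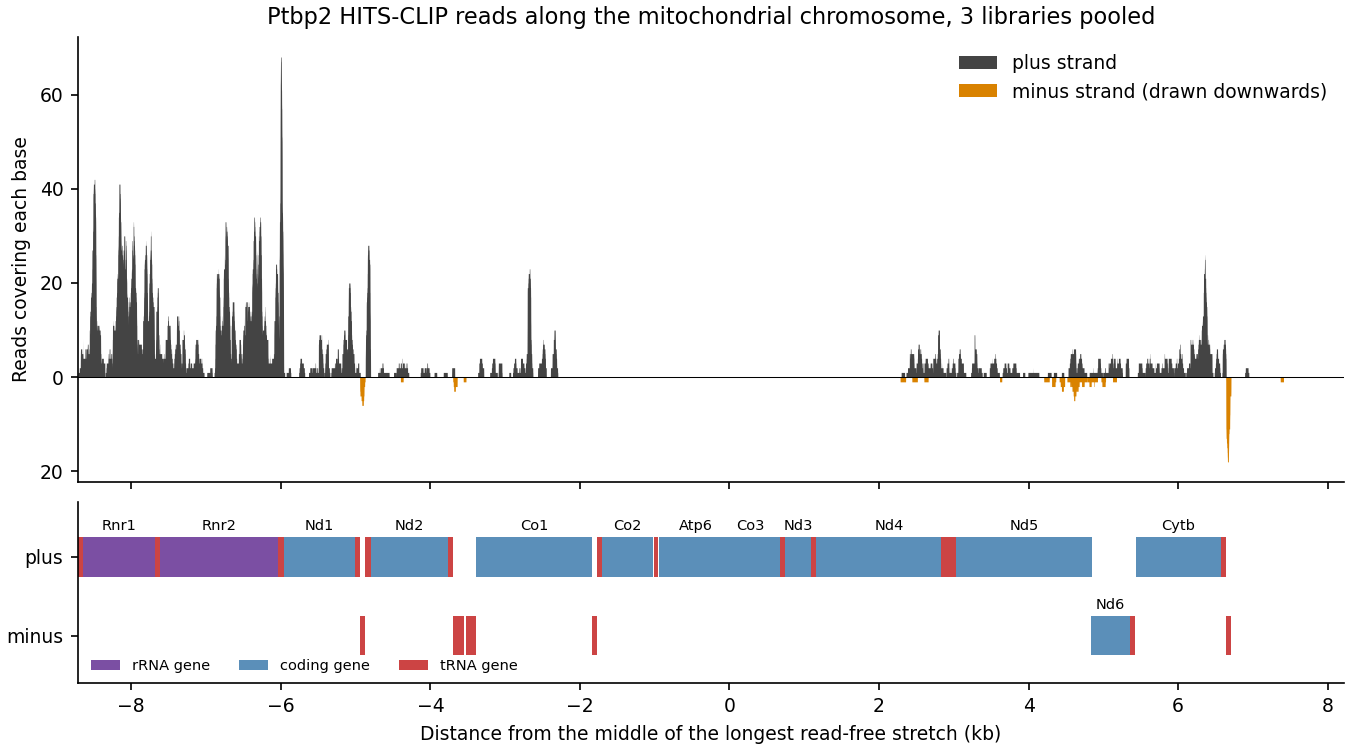
The upper panel plots the number of reads covering each base, plus strand upwards and minus strand downwards, against distance in kb from the middle of the longest read-free stretch, and the lower panel draws the rRNA, coding and tRNA genes on their strands. The tallest peak, of 68 reads, stands in mt-Tl1, just right of mt-Rnr2, and no plus-strand read lies in the central 4592 nt.

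The longest stretch without a plus-strand read ran from 6419 to 11010, which is 4592 nt. The next longest measured 307 nt. It was empty in every class, spanning 4657 nt for red, 4717 nt for green and 4595 nt for blue. Reads were present up to its edges, with 46 plus-strand reads centred in the 500 nt before it and 31 in the 500 nt after it. On the minus strand no read lay wholly inside it, and a single read, from 10997 to 11070, touched it. The stretch took in 11 whole genes. These were mt-Co2 and mt-Co3 of cytochrome oxidase, mt-Atp8 and mt-Atp6 of ATP synthase, mt-Nd3 and mt-Nd4l of complex I, and the serine, aspartate, lysine, glycine and arginine tRNA genes mt-Ts1, mt-Td, mt-Tk, mt-Tg and mt-Tr. It also took in the downstream part of mt-Co1 and the upstream part of mt-Nd4.

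A gene in that stretch has a listed copy in the nuclear genome. The RefSeq table lists on chromosome 1 the pseudogene Gm10925, which carries mt-Atp6 among its synonyms and is 681 nt long, the length of mt-Atp6. The pseudogene beside it, Gm10222, is 297 nt long, the length of mt-Nd4l. The pair lies in the opposite order to mt-Atp6 and mt-Nd4l, and the table gives no strand for it. Its higher coordinates lie 1951 nt apart and its lower ones 1567 nt, and the mitochondrial pair has 1950 nt between its lower coordinates and 1566 nt between its higher ones. How reads with several equal matches were handled is not stated by the labels or the file. Whether reads of these 11 genes were dropped for matching the nuclear copy as well or were not recovered cannot be told apart, so a count of 0 there says nothing about their level. The part of the nuclear copy in the empty stretch was not tested.

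The ribosomal RNAs were the most abundant members by count. mt-Rnr1, the small-subunit rRNA, had 315 reads, with 81 red, 169 green and 65 blue. Its density was 330 reads per kb (95% exact Poisson interval 294 to 368). mt-Rnr2, the large-subunit rRNA, had 326 reads, with 92 red, 166 green and 68 blue. Its density was 206 reads per kb (184 to 230), below that of mt-Rnr1 by more than counting error. Counted per 1000000 reads of each class, mt-Rnr1 had 164 red, 178 green and 230 blue reads, and mt-Rnr2 had 186 red, 174 green and 241 blue reads. The blue class was the highest for both rRNAs, and red and green were close to each other.

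Within each rRNA the reads gathered at a few places. In mt-Rnr1 the summits were 42 reads from 219 to 225, 150 nt into the gene, 41 reads from 549 to 562, 480 nt in, and 33 reads from 742 to 744, 673 nt in. All 3 classes contributed to each, with 11 red, 25 green and 6 blue reads at the first. When the gene was cut into 10 equal parts, part 6 held 63 of its reads and part 4 held 7. Part 6 was the highest in red and green, with 22 and 33 reads, and part 10 the highest in blue, with 12. In mt-Rnr2 the downstream 50% of the gene held 71.8% of the reads, with 71.7% for red, 72.9% for green and 69.1% for blue. Its part 9 held 65 reads and parts 3 and 4 held 12 each. The highest summit of mt-Rnr2 reached 34 reads from 2353 to 2359, 1260 nt into the gene. The classes placed their reads only partly alike. Over 50 windows of 50 nt in the 2 rRNA genes, Pearson's r of read counts was 0.645 between red and green. It was 0.592 between green and blue and 0.379 between red and blue. Spearman's rho was 0.544, 0.615 and 0.344 for these pairs in the same order. These are descriptions across windows of the same libraries, with few reads per window.

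**Figure D2:**
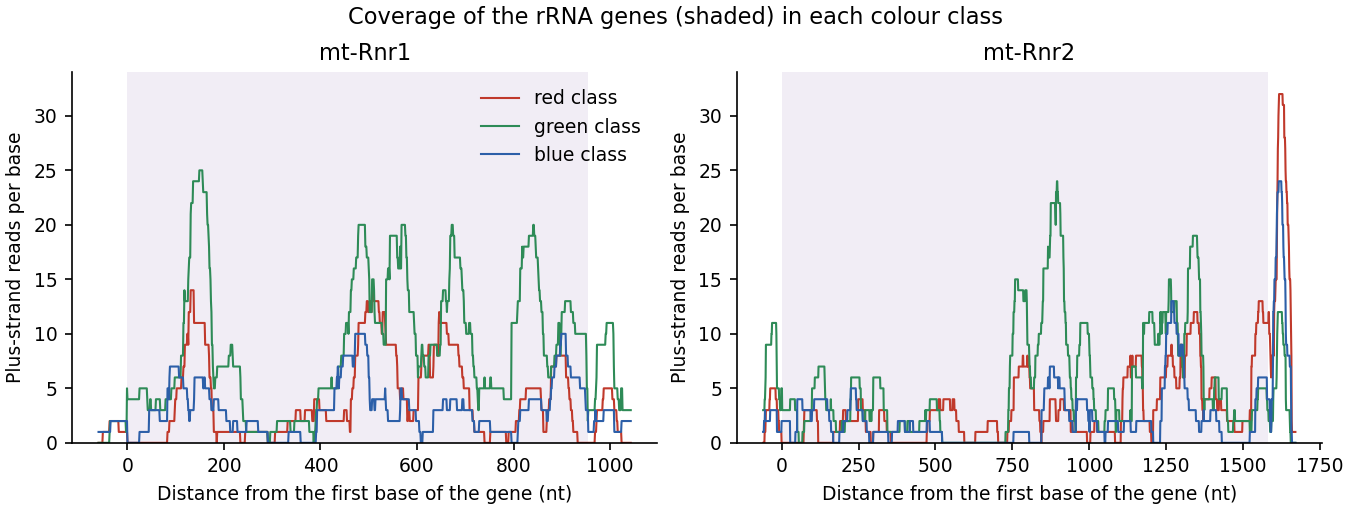
Plus-strand reads per base in each colour class are plotted against distance in nt from the first base of mt-Rnr1 (left) and mt-Rnr2 (right), with the gene shaded. The shared summits inside mt-Rnr1 and the low upstream part of mt-Rnr2 are visible, and past the end of mt-Rnr2 the mt-Tl1 peak is high in red and blue and low in green.

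The tallest site on the chromosome lay in the leucine tRNA gene mt-Tl1, directly downstream of mt-Rnr2. From 2711 to 2718, 68 reads overlapped, of which 32 were red, 12 green and 24 blue. The density of mt-Tl1 was 907 reads per kb (95% exact Poisson interval 704 to 1149), the highest of the 37 genes. The green class made 17.6% of the mt-Tl1 reads (95% Wilson interval 10.4 to 28.4) and 46.5% of all mitochondrial reads (43.7 to 49.3). Counted per 1000000 reads of the class, mt-Tl1 had 64.8 red, 12.6 green and 85.1 blue reads, 5.14-fold and 6.75-fold above green in red and blue. Scaled to 1000 sense reads, its density was 777 per kb with all classes, 588 without red and 1206 without green. Part of the height came from reads with a shared 5' end, since the distinct 5' ends numbered 16 in red, 9 in green and 13 in blue. As each distinct read is held once, one present in several classes would appear in a single colour, and the part of this in the low green count was not tested. Without mt-Tl1 the mitochondrial reads numbered 689 per 1000000 reads in red, 581 in green and 904 in blue, the same order as with it.

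Other tRNA genes held far fewer reads. mt-Tm, the methionine tRNA gene, had 28 reads, with 10 red, 12 green and 6 blue, and a density of 406 per kb (270 to 586). mt-Tv, the valine tRNA gene that separates the rRNA genes, had 20 reads, with 5 red, 12 green and 3 blue, and a density of 290 per kb. mt-Tp, the proline tRNA gene, reads along the minus strand and had 18 reads, with 5 red, 6 green and 7 blue, and a density of 269 per kb. The Poisson intervals of mt-Tm, mt-Tv, mt-Tp and mt-Rnr1 overlapped, and their order is not settled by these counts. mt-Tt, of threonine, had 8 reads, and mt-Tf, of phenylalanine, and mt-Tq, of glutamine, had 6 each. Of the 6 mt-Tq reads 5 were red, 1 was green and 0 were blue, and its density per 1000 sense reads was 72.4 per kb with all classes and 17.3 without red. On the same scale, reads wholly inside 1 gene gave 96.1 per kb for mt-Tp, against 230.2 with all its reads, and 27.1 for mt-Tf, against 75.6. The remaining tRNA genes with reads, mt-Ts2, mt-Tl2, mt-Ti, mt-Ta and mt-Th, had 1 to 4 reads each. By the midpoint rule 5 genes outside the long empty stretch had 0 sense reads. These were the tryptophan, asparagine, cysteine, tyrosine and glutamate tRNA genes mt-Tw, mt-Tn, mt-Tc, mt-Ty and mt-Te. A count of 0 allows up to 3 reads by the one-sided 95% limit, or 3.69 by the exact Poisson interval used for the densities. For mt-Tw the 0 depends on the rule. There 2 red reads reached its last 5 nt and ended 23 nt past it, with their midpoints beyond the gene, opposite mt-Ta.

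Reads on tRNA genes mostly began inside them. Of the 154 reads on the 7 tRNA genes with at least 5 reads, 131 began 10 nt or more inside the gene and 20 began within 2 nt of its 5' end. mt-Tm had the largest number at its 5' end, 8 of 28. For mt-Tl1, 65 of 68 reads began 10 to 35 nt inside the gene, and 10 of them shared the 5' end at 2692. Reads assigned to tRNA genes had a median length of 42 nt, against 49 nt for rRNA and 48 nt for coding genes, in genes whose own length is 59 to 75 nt.

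Most reads at the end of mt-Rnr1 and of tRNA genes stopped close to the last base. At least 5 reads reached the last 5 nt of 8 genes, none of them coding. Those of mt-Tf, mt-Rnr1, mt-Tv, mt-Tl1, mt-Tm, mt-Tt and mt-Tp numbered 79. Of these 44 ended within the gene, 33 ended 1 to 4 nt past it and 2 ended 5 nt or more past it (2.53%, 95% Wilson interval 0.697 to 8.77). Those 2 reads were each 74 nt long, the longest read length here, so their ends may be where sequencing stopped. For mt-Rnr1, 12 of 13 reads ended in its last 5 nt and 1 ended 16 nt past it. Another 10 genes had 17 such reads, of which 7 ended 5 nt or more past the gene, and 5 of those 7 were among the 6 reads at the ends of the coding genes mt-Nd1, mt-Nd4, mt-Nd5 and mt-Nd6. For mt-Tp, 11 of 13 ended 1 to 4 nt past the gene, 6 of them exactly 3 nt past it. A mature tRNA carries a CCA tail that is added after cutting and is not encoded in the genome, and whether the bases past the gene were of that tail was not tested, because the sequences of the reads were not used here.

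The end of mt-Rnr2 differed from these. Of 21 reads that reached its last 5 nt, 13 ended 5 nt or more past it, inside mt-Tl1 (61.9%, 95% Wilson interval 40.9 to 79.2), and 5 ended 10 nt or more past it. The ends of the 21 reads were spread over 16 positions, the furthest 32 nt past the gene, and those of the 13 mt-Rnr1 reads over 5 positions, the furthest 16 nt past it. Each of these furthest reads was 74 nt long, so how much further its RNA ran is not known. The 13 reads were 8 red, 1 green and 4 blue, of 11 red, 4 green and 6 blue that reached the end. They had 5 distinct 5' ends. Counted over reads on either side of the boundary, 13 of 24 crossed it (54.2%, 35.1 to 72.1), and when only the longest read of each 5' end and class was kept, 35.3% did (17.3 to 58.7). At the other 5 boundaries with at least 8 reads, 2 of 73 crossed (2.74%, 0.755 to 9.45), and the intervals do not overlap in either case. Points inside genes, at least 30 nt from either end, were crossed by a median of 71.4% of their reads. The share moved with the 5 nt rule: with 10 nt asked for on each side, 20% crossed at mt-Rnr2 (8.86 to 39.1) and 2.11% at the others (0.579 to 7.35).

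**Figure D3:**
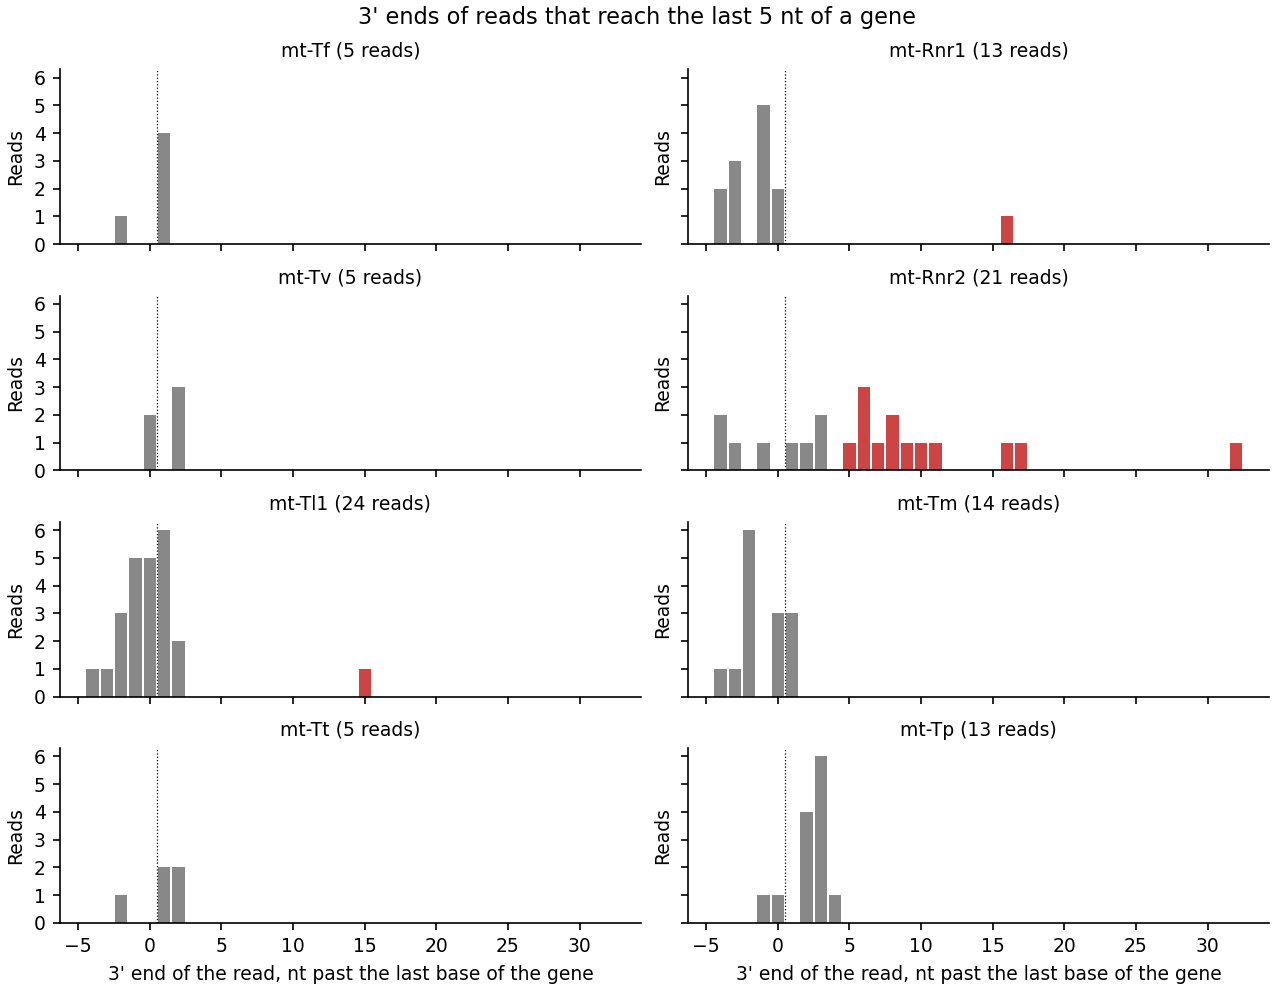
Each panel counts the reads that reach the last 5 nt of a gene by the position of their 3' end, in nt past the last base of that gene (dotted line), with ends 5 nt or more past it in red. Ends stay within 4 nt of the gene for all but 2 of the 79 reads on 7 genes, whereas 13 of 21 mt-Rnr2 reads run further. The furthest ends of mt-Rnr1, mt-Rnr2 and mt-Tl1 are those of reads at the 74 nt limit.

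Reads across other boundaries were few. Over all 24 boundaries between same-strand neighbours, 18 reads crossed by at least 5 nt on each side, or 1.48% of the mitochondrial reads (0.938 to 2.33). The share was 0.829% without red, 2.61% without green and 0.645% with the shortest read of each 5' end and class. Those outside the mt-Rnr2 end were 2 of 3 reads at the boundary of mt-Nd4 and mt-Th, 1 of 2 at mt-Nd1 and mt-Ti, 1 of 16 at mt-Rnr1 and mt-Tv, and 1 of 24 at mt-Tl1 and mt-Nd1. No read crossed from mt-Tm into mt-Nd2, where 14 reads reached the boundary.

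Among the mRNAs, mt-Cytb of complex III and mt-Nd1 of complex I had the highest densities over the whole gene. mt-Cytb had 98 reads, with 31 red, 46 green and 21 blue, which is 85.7 per kb (69.5 to 104). mt-Nd1 had 75 reads, with 23 red, 36 green and 16 blue, which is 78.4 per kb (61.6 to 98.2). These intervals overlap. The next were mt-Co1, the catalytic subunit of cytochrome oxidase, with 62 reads, and mt-Nd5 with 58. Density was 40.1 per kb for mt-Co1 and 31.8 per kb for mt-Nd5. mt-Nd4 had 37 reads, or 26.9 per kb, and mt-Nd2 had 22, or 21.2 per kb. Over the bases outside the empty stretch mt-Co1 had 56.8 and mt-Nd4 69.3 reads per kb, which places both above mt-Nd5 and closer to mt-Nd1. The mt-Nd4 value lies within the interval of mt-Nd1, so the order of these genes is not settled by the counts. mt-Nd2, which lies outside that stretch, was 3.70-fold below its neighbour mt-Nd1 in density, and its interval of 13.3 to 32.1 per kb did not overlap that of mt-Nd1. The classes differed for mt-Co1, with 50.6 red, 18.9 green and 67.4 blue reads per 1000000 reads of the class, and for mt-Nd5, with 28.4 red, 26.3 green and 67.4 blue. Of the 11 genes with at least 20 reads, counts per 1000000 reads were higher in blue than in green for 10. They were higher in red than in green for 8 and higher in blue than in red for 10. All mitochondrial reads together had the same order, with 989 in blue, 754 in red and 593 in green, so these counts are not a separate result about the genes.

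The tallest summits of the coding genes lay in mt-Cytb, mt-Co1 and mt-Nd1, which also had the most reads, and summit height rises with read number. In mt-Nd1 the downstream 50% of the gene held 84.0% of the reads, with 87.0% for red, 83.3% for green and 81.2% for blue, and its summit of 20 reads lay from 3623 to 3636, 84 nt before the end of the gene. In mt-Cytb it held 70.4%, and the summit of 26 reads, 9 red, 11 green and 6 blue, lay from 15073 to 15074. mt-Co1 had its summit of 23 reads from 6038 to 6044, 711 nt into the gene, with 9 red, 10 green and 4 blue reads. In mt-Nd5 the upstream 50% held 36 of 58 reads, with 7 of 14 red, 14 of 25 green and 15 of 19 blue, and its highest point was 9 reads. In mt-Nd2 it held 15 of 22 reads, and the highest point was 4 reads, too few to judge how spread they were. All 37 reads of mt-Nd4 lay in its downstream 50%, as the upstream part is in the empty stretch, and its summit was 10 reads from 11506 to 11522. Counting each 5' end once per class, the summits of mt-Nd1, mt-Co1 and mt-Cytb were 16, 18 and 19 reads.

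**Figure D4:**
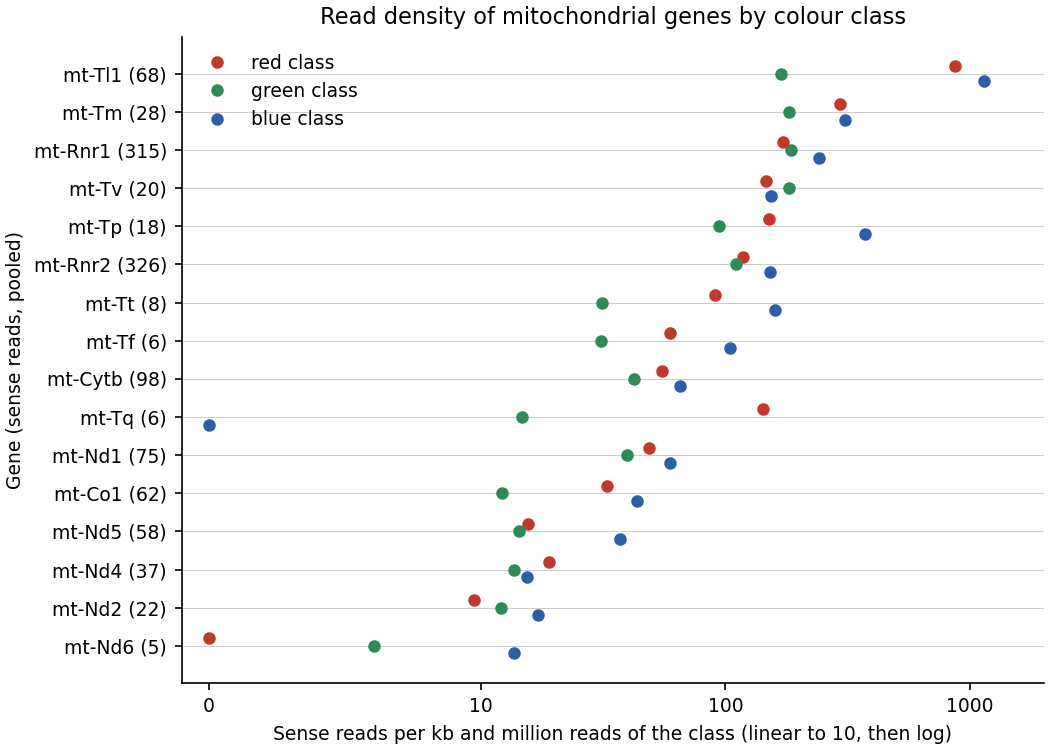
Sense reads per kb of gene and per 1000000 reads of the class are plotted for 16 genes with at least 5 sense reads, 1 point per colour class, ordered by pooled density, on an axis that is linear to 10 and logarithmic beyond. The green point of mt-Tl1 lies at 168, apart from red at 864 and blue at 1135, while the points of mt-Rnr1 and mt-Rnr2 lie close together.

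The minus strand held 55 reads, 27 sense to tRNA genes, 5 sense to mt-Nd6, 21 only opposite a gene and 2 in no gene. Its highest point was the mt-Tp site, 18 reads from 15375 to 15387. Next came mt-Tq with 6 reads from 3798 to 3817. mt-Nd6, the complex I subunit encoded on this strand, had 0 red, 3 green and 2 blue reads, or 9.63 per kb (3.13 to 22.5), the lowest of the coding genes with reads. More minus-strand reads lay just downstream of mt-Nd6 than in it. Of 18 reads opposite mt-Nd5, 1 of which also lay in mt-Nd6 where these genes overlap, 16 were centred within 600 nt of the 3' end of mt-Nd6, covering 12918 to 13552, with 3 red, 11 green and 2 blue. Minus-strand reads opposite other coding genes were 3 at mt-Nd4 and 1 at mt-Nd2. On the plus strand 22 reads lay opposite mt-Nd6, between mt-Nd5 and mt-Cytb, from 13572 to 14057, with 8 red, 5 green and 9 blue. The region between mt-Tp and the end of the sequence, which holds the promoters and the replication origin of the heavy strand, had 3 reads, 2 of the plus strand and 1 of the minus strand.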

How the data were processed

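Per the labels' protocols, 79 bases were sequenced and the first 5 came from the linker; Bowtie, per the submitters' processing notes, mapped them to mm9. Its version and settings are not given in the sources used. The deposited file is the authors' list of read positions, with start, end, strand and colour, in which the longest read is 74 nt and 0 lines repeat another's ends and strand, so identical reads had been collapsed. Counts of these deposited lines are the values used. Each read was assigned to the same-strand gene holding its midpoint, and shares have 95% Wilson intervals and densities exact Poisson intervals. All 37 mitochondrial genes of the RefSeq table were matched by symbol, and their strands, which it lacks, and mt- names (mt-Nd1 for its ND1, mt-Co1 for COX1, mt-Tl1 for TrnL1) were added from textbook knowledge. The code was run on simulated reads planted across boundaries and, for genes, away from gene ends on bases that no other same-strand gene shares. It returned the planted counts for 37 of 37 genes and at least the planted crossings for 24 of 24 boundaries. Such a run checks the code only, since it used the same strands and left out reads at gene edges. Named singly are both rRNA genes, all coding genes, tRNA genes with 5 or more sense reads, and the highest summits, at least 100 nt apart; genes at 0 and other tRNA genes are named to account for all. The members and lists were chosen with earlier results of these data known. Colours were taken as libraries, and no p-value was computed. Alternatives changed assignment, read length (30 nt or more), shared 5' ends, the crossing rule and the classes used. Computations used Python 3.11.15, numpy 2.4.6, pandas 2.3.3 and scipy 1.17.1.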

Additional observations from a re-analysis of the deposited data

How the results depend on the processing

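Keeping 1 read for each 5' end and class, the mitochondrial share was 0.0627%, the rRNA share 50.6%, the coding share 35.45% and the rRNA to coding ratio 6.39, whichever read was kept. With the shortest read kept, boundaries were crossed by 0.645% of reads, by 31.25% at the end of mt-Rnr2 and by 0% at the other 5. This setting drops the longer reads of each 5' end, which favours lower crossing shares by construction. With the longest kept, a setting added after seeing the data like the count of bases outside the empty stretch (ratio 5.03), the 3 crossing shares stayed within their intervals. Asking for 1 nt on each side gave 3.78%, 100% and 46.5%, since ends 1 to 4 nt past a gene then count, and asking for 10 nt gave 0.822% and 20%, which admits fewer reads by construction. Reads wholly inside 1 gene gave a tRNA share of 10.9%, since reads running past tRNA genes are lost. Leaving out 1 class gave a mitochondrial share of 0.0648% to 0.0839%, an rRNA share of 49.4% to 57.35%, a tRNA share of 12.5% to 18.4%, a ratio of 6.88 to 8.51, a crossing share of 0.829% to 2.61% and an empty stretch of 4592 to 4657 nt; the upper mitochondrial, tRNA and crossing shares and the lowest ratio came without green, and the lowest crossing share came without red. For the other shifts the cause was not tested. For the 16 genes with at least 5 sense reads, 104 of 112 densities per 1000 sense reads under 7 settings stayed within the counting interval of the value reported. The 8 that left it, in reads per kb, were mt-Tl1, from 777 to 588 without red, 1206 without green and 574 with 1 read per 5' end, mt-Rnr1, from 283 to 247 without green, mt-Co1, from 34.4 to 46.0 without green, and the values of mt-Tq, mt-Tp and mt-Tf given above. No paired analysis was possible because all libraries belong to 1 group. Depth limits most genes, and the rRNA genes, mt-Cytb, mt-Nd1 and mt-Tl1, which have the most reads, the least.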
